A study of Mus musculus with 10 samples.

Results

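Acetylated open regions at gene ends are stretches of accessible chromatin that carried H3K27ac, and no H3K27me3, beside a protein-coding gene in neonatal mouse retina. The 4 ATAC-seq peak lists of chromosomes 1 to 19 were merged wherever peaks shared 1 bp, which gave 116384 regions. A region was kept when all 4 lists called it (32852), when it lay within 1000 bp of either annotated end of a protein-coding gene (11320 of those), when it touched a peak in both H3K27ac lists (10362) and when it touched none in either H3K27me3 list. This left 8287 regions, 25.2% of the 32852 common open regions. All of these calls chose the regions and are therefore descriptions, not results. Just inside the distance limit lay regions at Mafg, Npr2 and Arnt2, each 996 bp from a gene end, and just outside lay regions at Sin3a (1003 bp), Mnt (1004 bp) and Sipa1l2 (1004 bp).

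The study set control retina (wild type) beside retina with a conditional knockout (cKO) of Casz1, a zinc finger transcription factor of retinal progenitors, in C57BL/6 mice. For ATAC-seq, in which the transposase Tn5 inserts adapters into open DNA, retinal explants labelled postnatal day 2 received plasmids for GFP without Cre (control, 2 libraries) or with Cre (cKO, 2 libraries) and were kept for 2 days ex vivo. Each of these libraries came from 50000 live GFP-positive cells taken by flow cytometry, whatever their cell type, and the ATAC experiments were done on separate days, with no label saying which libraries share a day. H3K27ac and H3K27me3 were immunoprecipitated from retina of postnatal day 0, from 1 control and 1 cKO sample each, and for the cKO the tissue was peripheral retina picked by its fluorescence. The 2 genotypes thus differ in dissection as well as in Casz1 for the histone marks, and the age and the cells differ between the assays. The labels do not say which promoter drives Cre in the animals used for the histone marks. The 2 input samples were not analysed here.

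A promoter is the DNA at which RNA polymerase II starts a transcript. At active promoters nucleosomes are displaced from the start site, and the nucleosomes beside it are acetylated at lysine 27 of histone H3 by the acetyltransferases p300 and CBP. The same lysine can instead be methylated by Polycomb repressive complex, which keeps developmental genes silent in tissues that do not use them. In the neural retina, broad housekeeping transcription runs alongside genes that define progenitors, photoreceptors, interneurons and Müller glia.

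Promoter sequences of the widest regions are shown first, because sequence composition is a property the choice of regions did not use. They come from RefSeq on GRCm38.p6, the assembly also called mm10, and run from 250 bases before to 50 bases after the annotated start, 5′ to 3′ along the gene. Capitals mark exact matches, on either strand, to the GC box GGGCGG, the ETS motif CCGGAAGT, the NRF1 motif (a palindrome of 10 bases, seen as the run of 10 capitals in Ttc3), the YY1 motif AAGATGGC, the CCAAT box CCAAT or the TATA box TATAAA. The first is the promoter of LOC108167694 (chr9:124423351-124423650, minus strand), at the widest region in the ranking described further on, with 2 GC boxes.
LOC108167694: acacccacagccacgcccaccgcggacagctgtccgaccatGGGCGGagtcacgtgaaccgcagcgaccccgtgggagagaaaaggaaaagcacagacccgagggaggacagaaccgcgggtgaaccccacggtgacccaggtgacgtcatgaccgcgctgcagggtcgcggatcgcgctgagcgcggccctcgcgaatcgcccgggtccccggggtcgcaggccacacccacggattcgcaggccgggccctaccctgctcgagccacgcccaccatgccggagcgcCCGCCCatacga
Ddit3 and Mbd6 share the next region and are transcribed away from each other from its opposite sides. Ddit3 (chr10:127290543-127290842, plus strand), a stress-induced transcription factor also called CHOP, has 1 ETS match and 1 CCAAT box. Mbd6 (chr10:127288969-127289268, minus strand), a protein of the methyl-CpG-binding domain family, has 3 GC boxes and 1 CCAAT box.
Ddit3: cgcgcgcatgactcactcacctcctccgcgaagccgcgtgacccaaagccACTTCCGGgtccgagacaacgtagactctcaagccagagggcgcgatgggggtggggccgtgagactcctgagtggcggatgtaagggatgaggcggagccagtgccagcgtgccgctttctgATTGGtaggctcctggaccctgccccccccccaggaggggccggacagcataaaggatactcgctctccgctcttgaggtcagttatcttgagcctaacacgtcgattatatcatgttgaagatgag
Mbd6: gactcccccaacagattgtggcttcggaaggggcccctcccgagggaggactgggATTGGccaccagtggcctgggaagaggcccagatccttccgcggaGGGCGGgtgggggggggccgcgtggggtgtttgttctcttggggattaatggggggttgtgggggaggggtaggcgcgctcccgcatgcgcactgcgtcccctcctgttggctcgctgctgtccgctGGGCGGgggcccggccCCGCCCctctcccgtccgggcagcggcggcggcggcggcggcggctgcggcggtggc
Ttc3 (chr16:94370489-94370788, plus strand), a ubiquitin ligase, has the widest region of any promoter with the NRF1 motif.
Ttc3: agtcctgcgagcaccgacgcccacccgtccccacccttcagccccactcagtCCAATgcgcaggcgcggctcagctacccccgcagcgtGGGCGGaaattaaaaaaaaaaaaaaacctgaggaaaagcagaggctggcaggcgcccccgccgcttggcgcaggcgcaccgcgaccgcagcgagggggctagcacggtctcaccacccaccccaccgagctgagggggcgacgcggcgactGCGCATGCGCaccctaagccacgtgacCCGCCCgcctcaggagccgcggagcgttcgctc
Hnrnpul1 (chr7:25754710-25755009, minus strand), an RNA-binding protein, has the widest region with the YY1 motif, together with 4 CCAAT boxes.
Hnrnpul1: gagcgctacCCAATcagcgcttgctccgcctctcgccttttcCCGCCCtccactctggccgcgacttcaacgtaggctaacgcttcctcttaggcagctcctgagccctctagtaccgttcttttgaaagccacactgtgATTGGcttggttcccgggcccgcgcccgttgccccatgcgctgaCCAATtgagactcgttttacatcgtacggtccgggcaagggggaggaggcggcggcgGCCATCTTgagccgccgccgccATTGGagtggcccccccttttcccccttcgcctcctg
Elf2 (chr3:51340595-51340894, minus strand), itself an ETS family factor, has the widest region with a TATA box.
Elf2: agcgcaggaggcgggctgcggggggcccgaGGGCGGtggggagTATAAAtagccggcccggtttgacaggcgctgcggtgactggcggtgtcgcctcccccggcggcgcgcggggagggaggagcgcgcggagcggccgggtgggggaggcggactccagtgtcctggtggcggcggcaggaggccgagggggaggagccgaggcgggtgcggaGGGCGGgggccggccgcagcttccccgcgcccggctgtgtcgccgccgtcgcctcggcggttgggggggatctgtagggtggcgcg
All 6 windows were GC-rich, from 60.7% in Ddit3 to 78.7% in Elf2.

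Of the genes beside these regions, 6833 had a promoter sequence. Their median GC content was 61.7%, against 56.7% over all 16457 promoters of the table and 48.7% over the 7480 whose start had no common open region. The ratio of CpG dinucleotides found to those expected from base content had a median of 0.815, against 0.597 and 0.214. The ratio reached 0.6 or more, as in CpG islands, in 83.3% of the promoters at acetylated regions and in 12.2% of those without an open region. Composition also followed width: among the tenth of promoters at the widest regions median GC was 67.2%, and among the tenth at the narrowest it was 57.0%.

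The ETS motif, bound by factors such as GABPA and the ELF and ELK proteins, was in 767 promoters at acetylated regions (11.2%), against 5.44% of all promoters. Its share was 4.97% among the tenth of promoters at the widest regions and 10.5% among the tenth at the narrowest. At open starts that carried both histone marks in both genotypes it was in 13 of 1182 promoters (1.10%), and the median GC content of these promoters was 66.0%. The YY1 motif was in 5.97% of promoters at acetylated regions, in 3.21% of all promoters and in 0.761% of those with both marks. The NRF1 motif, bound by a factor of nuclear genes for mitochondria, was in 2.85%, 1.37% and 0.508% of these groups in the same order. The GC box, bound by SP and KLF factors, went the other way between the marked classes, with 69.0% at acetylated regions, 47.3% of all promoters and 77.4% where both marks were present. The CCAAT box, bound by NF-Y, was in 41.9% of promoters at acetylated regions and 39.1% of all promoters, while the TATA box was in 5.77% and 13.5%. The longer motifs of ZNF143 and of Ronin were rare, in 1.01% and 1.48% of promoters at acetylated regions against 0.468% and 0.729% of all promoters.

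**Figure D1:**
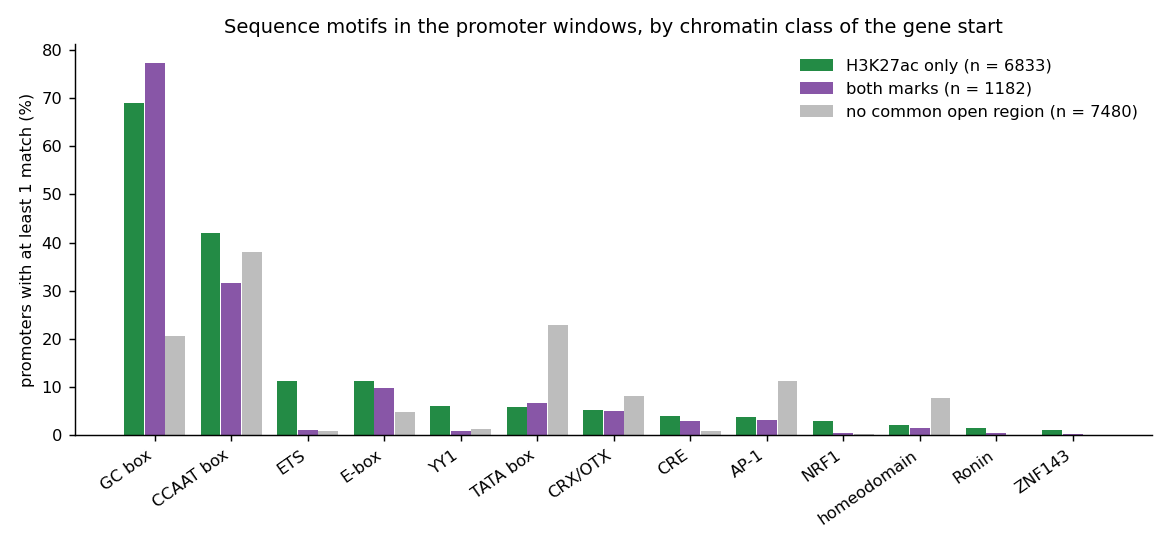
Share of promoter windows (percent, y axis) that hold at least 1 exact match to each motif (x axis), for starts at acetylated open regions, at open regions with both histone marks and at starts with no common open region. ETS, YY1 and NRF1 matches are more frequent at acetylated regions (11.2%, 5.97% and 2.85%) than in either other class, while the GC box reaches 77.4% where both marks are present.

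The cyclic AMP response element TGACGTCA was in 3.92% of promoters at acetylated regions and 2.40% of all promoters, and the E-box CACGTG in 11.1% and 7.97%. The AP-1 motif TGANTCA was less frequent than over all promoters, with 3.76% against 7.12%. The homeodomain core TAATTA was in 2.12% against 4.62%, and the CRX/OTX core TAATCC, bound by photoreceptor regulators, in 5.11% against 6.51%. These shares are descriptions of letters in the windows and move with base composition, whose part in them was not tested.

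The strand of the nearby gene was known for 6886 of the 8287 regions, and 6559 of these (95.3%) lay within 1000 bp of a start, while 257 (3.73%) lay near a far end alone. Gene-end regions with both histone marks were placed alike, with 95.9% near a start and 3.55% near a far end alone. Open gene-end regions with neither mark were placed differently, with 29.8% near a start and 68.9% near a far end alone. Regions with H3K27me3 alone had 73.4% near a start. Of the 8287, 7234 (87.3%) spanned the annotated gene end. Exons, introns and untranslated regions could not be assigned, because the gene table holds no transcripts.

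Starts on both strands, the arrangement of divergent gene pairs, occurred at 827 acetylated regions (9.98%), against 47 of 1801 regions with both marks (2.61%). Regions with starts on both strands were covered by ATAC peaks over a median of 629 and 1086 bp in control replicates 1 and 2 and 1062 and 781 bp in cKO replicates 1 and 2. Regions with a single start had medians of 552 and 1039 bp in control and 1010.5 and 696 bp in cKO, lower in each of the 4 lists. A wider region also reaches another start within 1000 bp more easily, and the part of this in the difference was not tested. Regions near a far end alone were the narrowest of the 3 kinds, at 258 and 765 bp in control and 729 and 415 bp in cKO. The paired regions also sat more often wholly inside H3K27ac in both lists, 70.1% against 50.3% of regions with a single start and 33.1% of those near a far end alone. The widest paired regions after Ddit3 and Mbd6 were at Cbx3 and Hnrnpa2b1 (heterochromatin protein 1 gamma and an RNA-binding protein), at the histone genes H1f4 and H2bc6, at Lpxn and Zfp91, and at Peg3 and Usp29, an imprinted pair.

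The deposited lists give no peak height, so the bases of a region that ATAC peaks cover in a list served as the measure of each region, called its ATAC coverage here. Its median over the 8287 regions was 546 bp in control replicate 1, 1035 bp in control replicate 2, 1005 bp in cKO replicate 1 and 690 bp in cKO replicate 2. Control replicate 2 and cKO replicate 1 were high and the other libraries low, so the genotypes overlapped. The same libraries had the long lists, 108569 and 91931 peaks on chromosomes 1 to 19, against 39636 in control replicate 1 and 59574 in cKO replicate 2. Read depth is unknown, and its part in these coverages was not tested. The order of regions by coverage was also most alike within these pairs, as a description over 8287 regions whose points share a library: Spearman's rho was 0.939 between control replicate 2 and cKO replicate 1 and 0.859 between control replicate 1 and cKO replicate 2, but 0.627 between the controls and 0.736 between the cKO libraries. Whether either pair shares a day cannot be told from the labels.

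The classes of open region differed in ATAC coverage within each library. These comparisons are descriptions with no test, because the same peaks chose the regions and a wider region meets a mark by 1 bp more easily. Acetylated open regions away from gene ends had medians of 265 and 806 bp in control and 759 and 427 bp in cKO, so gene-end regions were wider in 4 of 4 libraries, by a mean of 0.63 ± 0.31 on the log2 scale (SD, n = 4). Gene-end regions with H3K27me3 alone (n = 273) and with neither mark (n = 464) were narrower in 4 of 4 libraries, and acetylated regions exceeded them by 1.00 ± 0.54 and 1.41 ± 0.51 on the same scale. Regions with both marks did not stand apart in 1 direction: their medians were 371 and 1155 bp in control and 1108 and 582 bp in cKO, and acetylated regions were wider in 2 of 4 libraries, with a mean difference of 0.13 ± 0.34.

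**Figure D2:**
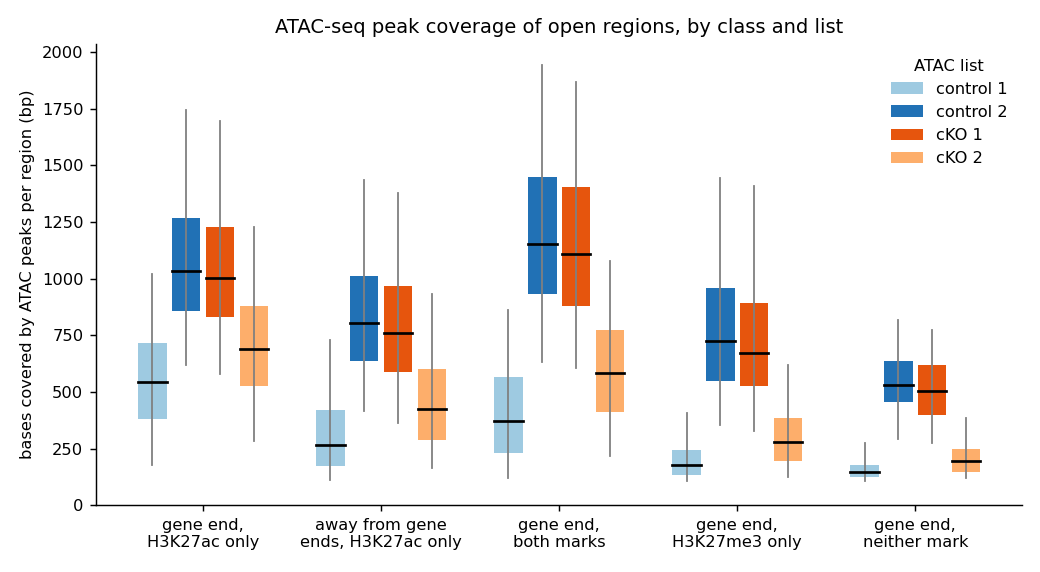
Bases covered by ATAC peaks per open region (bp, y axis) in 5 classes of region (x axis) and 4 libraries (colours). Boxes span the 25th to 75th percentile, black lines mark medians and grey lines the 5th to 95th percentile; control replicate 2 and cKO replicate 1 are high in every class, and acetylated gene-end regions have medians from 546 to 1035 bp.

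The widest regions were ranked by their lowest percentile within the 4 lists. LOC108167694 (chr9:124422887-124425854) came first, with 2513 and 2923 bp in control and 2896 and 2767 bp in cKO. The region shared by Ddit3 and Mbd6 (chr10:127288793-127291248) had 1428 and 2432 bp in control and 2426 and 1834 bp in cKO. Ncoa2, a coactivator of nuclear receptors, had 1514 and 2336 bp in control and 2331 and 1835 bp in cKO. These 3 regions were within the top percentile of every list, and their control and cKO values overlapped. Elf2 had 1766 and 2288 bp in control and 2243 and 1984 bp in cKO, and Trib1, a pseudokinase, 1668 and 2361 bp in control and 2217 and 1936 bp in cKO. Again no genotype was high in both of its libraries. Cdh2, the neural adhesion molecule N-cadherin, Cbx3, Hnrnpul1 and Zswim6 were also among the 10 widest. At far ends alone the widest regions lay at Kcna2 (a potassium channel), Gdf15 (a secreted factor of the TGF-beta family), Gm46933, Bcan (brevican, a matrix proteoglycan) and Notch4 (a Notch receptor), with lowest percentiles from 89.8 to 94.9.

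The difference between genotypes in ATAC coverage of these regions was smaller than the spread between libraries. The median over regions was 790.5 ± 346 bp in control and 847.5 ± 223 bp in cKO (SD, n = 2 each), a difference of 57.0 bp (exact permutation test, two-sided p = 1.0, smallest possible 0.333). Leaving out 1 library turned its direction in 2 of 4 cases, to -187.5 bp without control replicate 1 and -100.5 bp without cKO replicate 1, and gave 301.5 bp without control replicate 2 and 214.5 bp without cKO replicate 2. In the limma fit over all 32852 common regions, on quantile-normalised log2 coverage with Benjamini-Hochberg adjustment, 0 regions had an adjusted p under 0.05 in either direction (0.0%), and so 0 of the 8287. At an unadjusted p under 0.05 there were 6 of the 8287, against 102 of all common regions (0.31%). Without control replicate 2 the fit did call regions, with the lone control assumed to vary like the others. These calls were mostly higher in cKO, among common regions and acetylated gene-end regions alike. The median log2 difference in that fit was -0.141 over the 8287 regions and -0.0732 over all common regions. Both cKO libraries were above both controls in 43 of the 8287 regions (0.519%, against 0.627% of common regions) and below both in 6 (0.0724%, against 0.155%). The fit and these counts cover only regions called in all 4 lists. A region called in 1 genotype alone was left out beforehand, which limits the differences that could appear here.

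The smallest p values are given as values only, since none passed. Thrb, the thyroid hormone receptor of cone photoreceptors, had a region at chr14:17659115-17659830 with 326 and 706 bp in control and 367 and 127 bp in cKO (log2 difference -1.25, SE 0.35, limma adjusted p = 1). Control replicate 1 lay between the cKO libraries there. A second acetylated region of Thrb, chr14:17660173-17661506, had 533 and 1334 bp in control and 1308 and 643 bp in cKO. Zfp516 and Fbxo10 followed on the lower side, and Zfp932, Gm14322 and Klf13 had the smallest p values on the higher side. Zfp932, a zinc finger gene, had 140 and 316 bp in control and 710 and 564 bp in cKO, without overlap (log2 difference 1.24, SE 0.40, limma adjusted p = 1). Casz1 itself had an acetylated region near its gene end (chr4:148803855-148804868), with 315 and 895 bp in control and 1014 and 659 bp in cKO and with 4742 and 4685 bp of H3K27ac in the surrounding 10 kb. This does not check the deletion, since the labels do not place it within the gene.

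Around 4519 starts that lay within a region holding no other start, the marks were arranged along the direction of transcription. ATAC peaks covered from 91.1% to 99.5% of these starts in the 4 libraries. This follows largely from the choice of starts inside regions called in all 4 lists. H3K27ac covered 92.6% of starts in control and 89.8% in cKO, was at 96.5% and 95.4% at 500 bp downstream, and was at 57.3% and 53.8% at 500 bp upstream. At 1000 bp it covered 47.5% and 45.3% downstream and 13.6% and 12.4% upstream. Within 5 kb on each side, the median H3K27ac was 1005 bp downstream and 570 bp upstream in control and 986 and 533 bp in cKO, and more of it lay downstream at 83.7% and 85.0% of starts. The open region leaned the same way, with a median reach of 634 bp downstream and 420 bp upstream.

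H3K27me3 flanked these starts almost only on the upstream side. Within 5 kb upstream it was present at 1540 of the 4519 starts in control (34.1%) and at 1516 in cKO (33.5%). Within 5 kb downstream it was present at 162 (3.58%) and 158 (3.50%). The upstream share was that of all 16457 starts with a known strand, 34.1% in control and 33.5% in cKO, whereas the downstream share over all starts was 25.7% and 25.3%. A further 8252 starts had their own position outside any common open region, a different criterion from that of the 7480 promoters given further up. At these starts both sides were alike, 31.6% upstream and 31.7% downstream in control and 31.2% and 31.1% in cKO. The rule kept H3K27me3 out of the regions, which fixes the 0 at the start and can lower the flanks too, since a peak that reaches into a region removes it, while the starts just named were not filtered in this way. When starts outside any common open region were kept only if free of H3K27me3 from 420 bp upstream to 634 bp downstream, the median reach of the acetylated regions, 5999 remained, with H3K27me3 at 9.42% upstream and 8.03% downstream in control and at 9.22% and 7.60% in cKO. This comparison was added after seeing the data. At 3000 bp from the 4519 starts, the mark covered 14.1% of starts upstream and 0.819% downstream in control, and 13.9% and 0.686% in cKO.

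**Figure D3:**
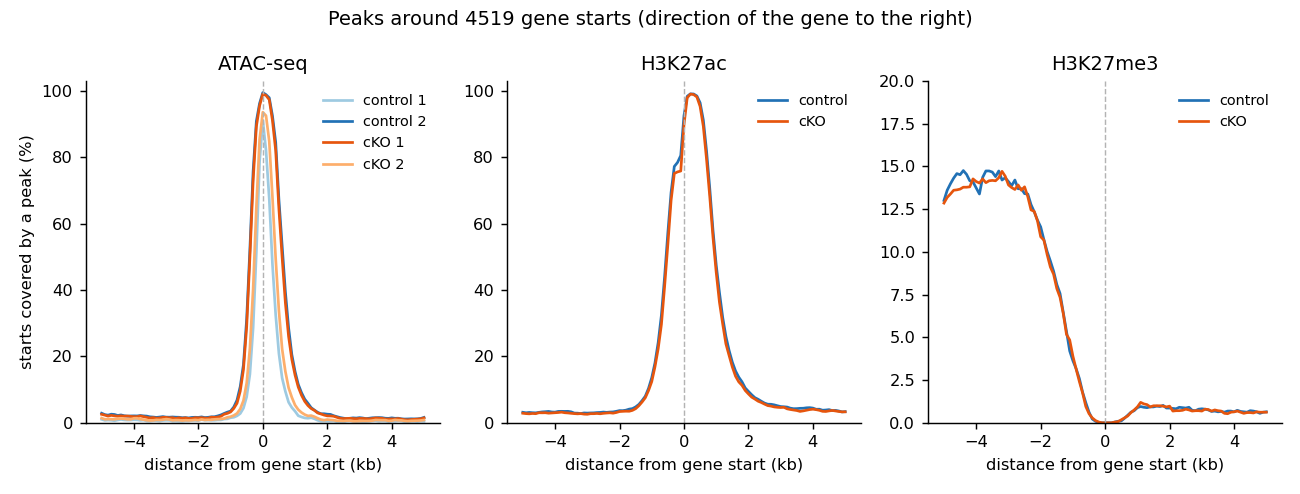
Percent of 4519 gene starts covered by a peak (y axis) at each distance from the start (x axis, kb, in 100 bp steps, the gene running to the right), for ATAC-seq in 4 libraries and for H3K27ac and H3K27me3 in control and cKO. H3K27ac leans into the gene, and H3K27me3 covers about 14% of positions 3 kb upstream and under 1% 3 kb downstream; the H3K27me3 axis ends at 20%.

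The mark was also counted around divergent pairs, which have a gene on either side, and around other acetylated regions. H3K27me3 lay in the 10 kb around 105 of the 827 regions with starts on both strands in control (12.7%) and around 99 in cKO. Regions with a single start had it at 1805 and 1773 of 5074 (35.6% and 34.9%). The share was 21.0% and 20.6% for regions near a far end alone, and 15.3% and 15.0% for acetylated open regions away from gene ends. A low share was thus not particular to divergent pairs, and its cause was not tested. The upstream peaks were of ordinary size, with a median of 375 bp in control and 361 bp in cKO beside 314 and 309 bp over the whole lists. The starts with the most H3K27me3 upstream, taken by the lower of both libraries and chosen after their values were seen, included Kdelr1, a receptor that returns proteins to the endoplasmic reticulum, with 4526 bp of 5 kb in control and 4501 bp in cKO and 0 bp downstream. Ccdc65 had 4461 and 4469 bp upstream and also 766 and 703 bp downstream. Dll1, a Notch ligand of neurogenic progenitors, had 4401 and 4340 bp upstream and 0 bp downstream, where H3K27ac covered 5000 and 4671 bp. Racgap1, a regulator of cytokinesis, had 4379 and 4372 bp upstream and 0 bp downstream. Of the 4, Ccdc65 was thus the 1 with H3K27me3 on both sides.

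H3K27ac around the regions was compared between 1 control and 1 cKO library, so there is no test. In the 10 kb centred on a region, H3K27ac covered a median of 1720 bp in control and 1649 bp in cKO, with a median change of -63 bp. It covered fewer bases in cKO at 5289 regions (63.8%, against 52.0% of all common regions) and more at 2985 (36.0%, against 28.7%), the remaining 13 being equal. Equal coverage was far more common over all common regions (6326 of 32852), and among regions with unequal coverage 63.9% of the acetylated gene-end regions and 64.4% of all common regions were lower. This direction depends on scaling: the cKO list covers fewer bases in all, 50.7 Mb against 54.4 Mb, and after scaling both to the same total (factor 1.07) the median change was 58.7 bp and 37.5% of the regions were lower, as were 37.3% of all common regions. Large changes were few. Coverage was at least 1.5-fold lower in cKO at 151 regions (1.82%, against 8.68% of common regions with H3K27ac in both) and at least 1.5-fold higher at 44 (0.531%, against 3.31%), and the rule, which asked for a peak in both lists, limits such changes among these regions. Over the 8287 regions the coverages of both libraries followed each other, with a Spearman's rho of 0.962 as a description.

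**Figure D4:**
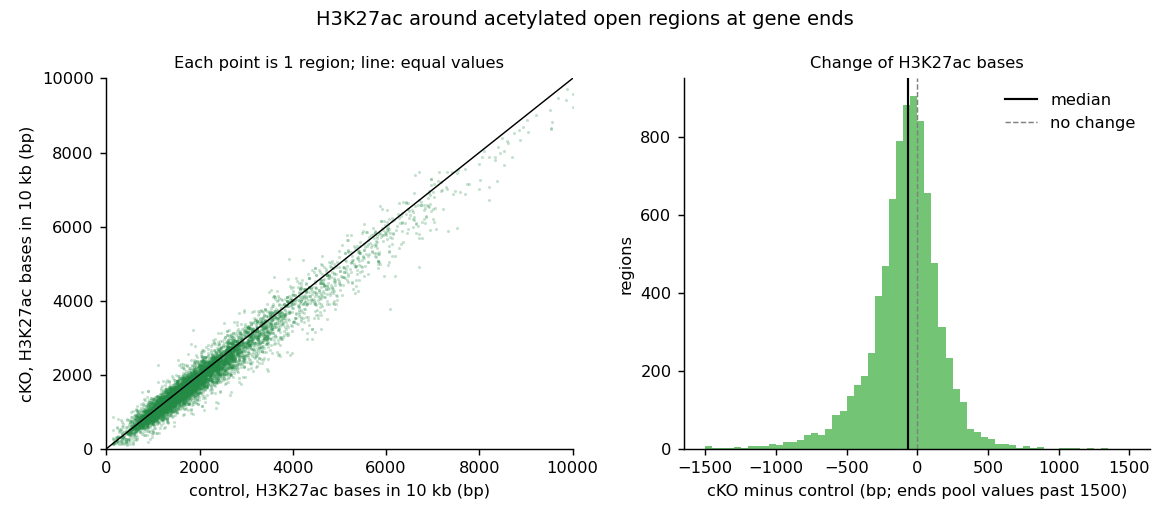
H3K27ac bases in the 10 kb around each of the 8287 regions in control (x axis, bp) and cKO (y axis, bp), and the distribution of cKO minus control (bp, unscaled; values past 1500 bp are pooled in the end bars). Points follow the line of equal values, and the median change is -63 bp, which becomes 58.7 bp after scaling to equal total coverage.

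The largest differences lay at a few genes. Ssbp4 (region chr8:70598222-70599081, at its far end) had 6086 bp of H3K27ac in control and 3787 bp in cKO. Akt1, a kinase of growth factor signalling, had 6711 and 4897 bp, and Dkk3, a secreted protein of the Dickkopf family found in Müller glia, 7527 and 5954 bp. These genes were chosen as the largest decreases, so they lie by choice beyond -530 bp, which marks the lowest twentieth of changes among the 8287 regions. Jund (an AP-1 subunit), Gpsm1, Hmga1 (a chromatin architectural protein of progenitors), Igsf8, Efna2 (an ephrin), Asah2 and Anapc2 followed, with changes from -1504 to -1388 bp. On the higher side, Ppp5c, a phosphatase, had 1868 bp of H3K27ac in control and 3202 bp in cKO. Faap100, Nr1d1 (a circadian nuclear receptor), Krt24, Acsl3, Nkiras2, Naa80, Uckl1 and Col11a1 (a collagen chain) had changes from 1147 down to 815 bp. All of these are single-library values.

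The way a region sat in the mark differed somewhat between the 2 H3K27ac lists. The cKO list held more and shorter peaks, 76177 with a median of 322 bp against 70458 and 397 bp in control. The part of this in the values below was not tested. A region lay wholly within H3K27ac in both lists at 4340 regions (52.4%), in control at 62.8% and in cKO at 56.0%. More than 1 H3K27ac peak touched 9.98% of regions in control and 14.4% in cKO, and the widest touching peak had a median of 1545 and 1467 bp. The 5 regions with the most H3K27ac in the surrounding 10 kb lay at Rax, Mab21l2, Bccip, Nr2f1 and Tbx2. Rax, an eye-field homeobox factor, had 9870 bp of it in control and 9703 bp in cKO, and Mab21l2, required for eye formation, had 10000 and 9570 bp. Nr2f1, a nuclear receptor of retinal patterning, had 9869 and 9408 bp, and Tbx2, a T-box factor of dorsal retina, 10000 and 9242 bp. The region at the far end of Bccip, beside Dhx32, had 9688 and 9463 bp. Although surrounded by H3K27ac, the open regions of Rax and Tbx2 were short, 259 and 660 bp in control and 599 and 212 bp in cKO for Rax, and 216 and 294 bp and 309 and 218 bp for Tbx2. At the other end, Zfp622, Ror2, Rsph6a, Zfp968 and Slitrk6 had from 147 to 508 bp in control and from 111 to 134 bp in cKO.

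Of 20665 protein-coding genes on chromosomes 1 to 19, 9223 (44.6%) had an acetylated open region at an end, and this background stands beside each gene list. Lists of general cell functions and of cell division had shares above it. All 34 spliceosome genes had one, as did 23 of 24 mitosis genes, where Bub3 carried both marks. So did 71 of 75 respiratory chain genes (94.7%), 68 of 73 genes of general transcription and Mediator (93.2%), 72 of 78 mitochondrial ribosomal proteins (92.3%) and 74 of 82 cytosolic ribosomal proteins (90.2%). Lower shares were found for MCM and replication genes, 29 of 34 (85.3%), and for translation initiation, 37 of 48 (77.1%), where 6 more carried both marks. The proteasome list had 33 of 38 (86.8%), and the 5 without were Psma6, Psma8, Psmb11, Psmb8 and Psmb9. Psma8 is the testis subunit, Psmb11 the thymus subunit, and Psmb8 and Psmb9 are subunits of the immunoproteasome. Psmb9 carried both marks and Psmb8 had another common open region, while Psmb10, also of the immunoproteasome, had an acetylated region.

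Among factors that bind such promoters, 21 of 23 had an acetylated region, and Nfyc and Rfx1 did not. The region of Gabpa, an ETS factor, was shared with the respiratory chain gene Atp5j (chr16:84834511-84836303) and had 1122 and 1793 bp in control and 1772 and 1183 bp in cKO. Of 14 subunits of the NuRD remodelling complex, 12 had an acetylated region. Those without were Chd3 and Chd5, the latter a neuronal form of its helicase subunit. Hdac2 had 1151 and 1547 bp in control and 1491 and 1194 bp in cKO, Mbd3 1198 and 1363 bp and 1312 and 1304 bp, and Rbbp4 1171 and 1381 bp and 1280 and 1183 bp. For these 3 subunits the libraries lay close together and the genotypes overlapped. The Polycomb list had 17 of 27 (63.0%), Ezh2 among them, and 7 of the other 10 carried both marks.

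Genes of retinal cell types were split among the classes. Of 22 retinal progenitor genes, 6 had an acetylated region (27.3%) and 12 carried both marks. The 6 had much H3K27ac around them. Its median in 10 kb was 8815.5 bp in control and 8549.5 bp in cKO, against 1720 and 1649 bp over all 8287 regions. Medians were also high for neurogenic genes (6359 and 6527 bp), photoreceptor regulators (6059.5 and 5967 bp) and Müller glia genes (5429.5 and 5050 bp). Amacrine and horizontal cell genes had 4672 and 4394 bp, cone genes 3336 and 3554 bp and rod genes 2498 and 1774 bp. Of the 6, Cdk4 had only 3523 and 3397 bp. The ATAC coverage of the 6 was not high (507 and 832.5 bp in control, 796.5 and 586 bp in cKO). Six6, an eye-field homeobox factor, had 9026 and 8883 bp of H3K27ac, and Hes5, a Notch effector, 8605 and 8268 bp. Of 18 neurogenic genes, 11 had an acetylated region and 6 both marks, and Hes6, an antagonist of Notch effectors, had 8869 and 8325 bp. Of 22 Müller glia genes 12 had one (54.5%), with Vim, an intermediate filament, and Glul, glutamine synthetase, among the widest. H3K27ac was lower in cKO at 11 of the 12 Müller glia regions (median change -281.5 bp) and higher at 1, as unscaled values of single libraries, beside 63.8% lower over all 8287 regions. After scaling to equal total coverage, 6 of the 12 were lower and 6 higher.

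Of 12 photoreceptor regulators 4 had an acetylated region, including Crx, with 8216 bp of H3K27ac in control and 7075 bp in cKO, and 4 carried both marks. Of 22 rod genes 5 had one (22.7%), the widest being Rom1, Aipl1 and Gnb1, and of 11 cone genes 4 (36.4%), the widest being Gnb3, Cngb3 and Gnat2. Bipolar cell genes had 1 of 20, at Bhlhe22, and 6 with both marks. The Bhlhe22 region was narrow, with 126 and 270 bp in control and 172 and 337 bp in cKO. Ganglion cell genes had 0 of 17, with 8 carrying both marks. Genes of lineages outside the neural retina had few acetylated regions. There were 0 of 18 vascular, 0 of 9 astrocyte, 0 of 9 erythroid and 1 of 16 microglial genes (Tmem119). Of pigment epithelium genes 2 of 12 had one (Tyrp1 and Pmel), as did 2 of 19 lens and 1 of 23 liver and muscle genes. Olfactory receptors had 0 of 1100 and Hox genes 0 of 39. Both marks were carried by 1 vascular, 1 astrocyte, 1 erythroid, 2 microglial and 1 liver and muscle gene. Another common open region lay at 4 vascular, 2 astrocyte, 2 microglial, 3 pigment epithelium and 2 liver and muscle genes. The same held for 4 olfactory receptor and 7 Hox genes. In bulk chromatin, a gene used in few cells and one weakly used in many cannot be told apart.

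**Figure D5:**
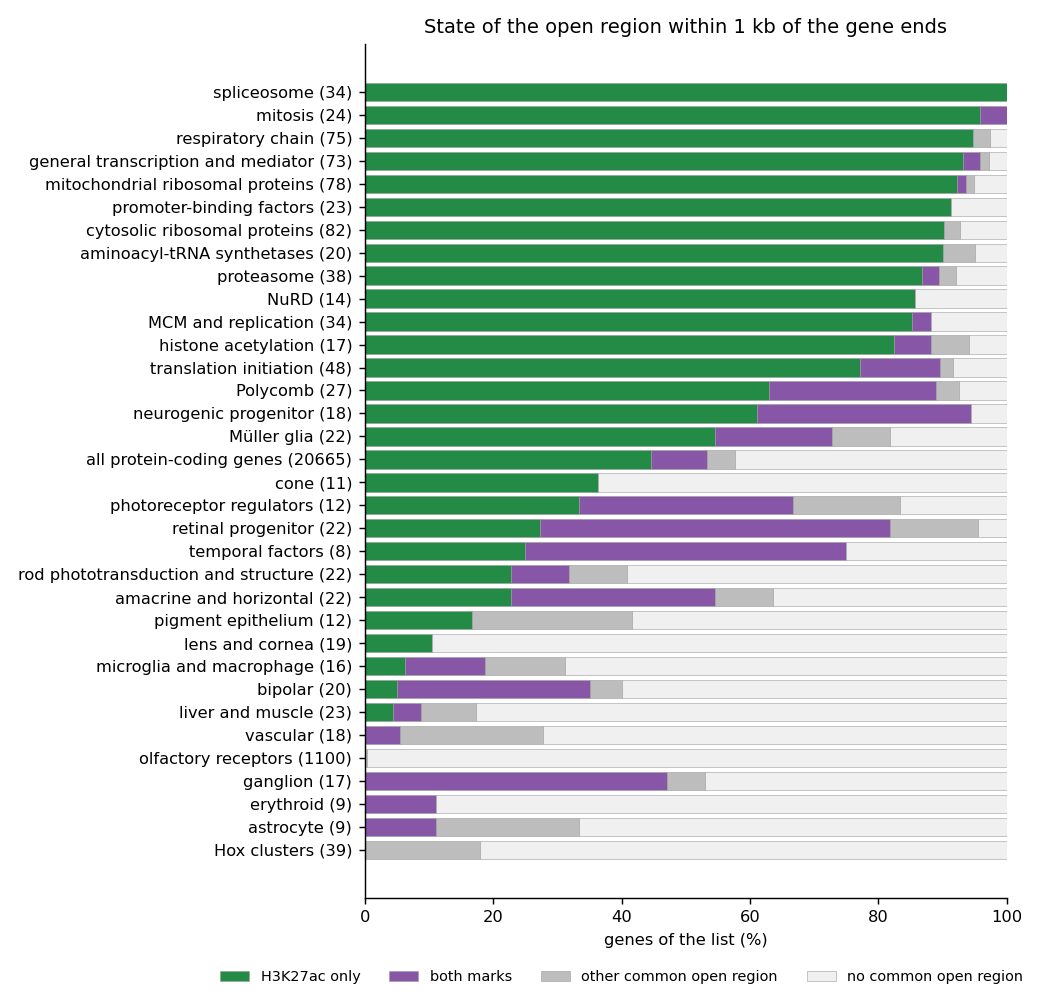
Share of the genes of each list (percent, x axis; number of genes in parentheses) whose ends have an acetylated open region, an open region with both histone marks, another common open region or none. Lists of general cell functions reach 77.1% to 100% acetylated, against 44.6% of all protein-coding genes, and the ganglion, vascular, astrocyte, erythroid, olfactory receptor and Hox lists have none.

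The labelled tissue was checked against defining markers in the same way. Of 11 markers of the neural retina, 6 had an acetylated region (among them Rax, Six3, Six6, Crx and Nrl), 4 had both marks (among them Pax6, Lhx2 and Neurod1) and Otx2 had no common open region at its annotated ends. Of 9 vascular, 8 microglial and 4 astrocyte markers, 0 had an acetylated region, and of 5 lens markers only Mip did. The vascular marker Cldn5 and the microglial marker Spi1 carried both marks. Kdr, Flt1 and Pdgfrb (vascular) and Pax2 (astrocyte) had another common open region. Of 6 pigment epithelium markers, 2 had an acetylated region (Tyrp1 and Pmel) and 2 had another common open region (Dct and Best1).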

How the data were processed

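The deposited peak lists hold, per the file headers and columns, chromosome, start and end of each peak in mm10 with a constant score of 0 and a constant strand, so positions and covered bases were the only measures and depth is unknown. The submitters' processing notes name Bowtie2, MACS2 and deepTools with no version, and neither they nor the labels give peak thresholds or say whether input was used. A list named for 1 library was taken as called on that library. Peaks outside chromosomes 1 to 19 were left out, from 1.61% to 2.34% of the ATAC and H3K27ac lists and 24.3% to 24.8% of the H3K27me3 lists, most of the latter on X.

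Peaks were merged and intersected in Python 3.11.15 (numpy 2.4.6, pandas 2.3.3, scipy 1.17.1). Gene ends came from the RefSeq table of GRCm38.p6 (20665 protein-coding genes). That table has no strand, so strand came from the RefSeq promoter table, which holds 16457 of them. ATAC coverage per region was fitted with limma 3.58.1 in R 4.3.3 on quantile-normalised log2 values (empirical Bayes with trend and robust options), control against cKO, adjusted over 32852 regions. Medians over libraries were compared by exact permutation. Where labels do not say that libraries came from separate animals, p-values measure only the spread between these samples, which may be technical. The code was tested on simulated data.

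Of 2020 entries in 33 gene lists, 2007 matched, 1 by an older symbol. Members and lists were chosen with earlier results of these data known. Named genes are the 10 widest regions, the 10 largest H3K27ac changes per direction, the 3 smallest limma p values per direction, the 3 widest per list with missing genes where 5 or fewer lack a region, the 5 widest at paired starts and at far ends, and the 5 with the most and fewest H3K27ac bases. A gene with several kinds of region counts as acetylated. Other list genes are named after their values were seen. Some genes that these rules took are left out of the text. Deviations of same-numbered libraries correlated at -0.643 and no label ties a number to a day, so the numbers were not used as pairs. The planned permutation test of coverage between classes is not reported, because the same peaks chose the classes.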

Additional observations from a re-analysis of the deposited data

How the results depend on the processing

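The number of acetylated gene-end regions stayed within 1.5 times of 8287 under every alternative, from 6661 with ATAC peaks of at least 300 bp to 8944 with a distance of 2 kb, and from 8313 to 8673 when 1 ATAC list was left out of the rule, an alternative chosen after seeing the data. The cKO minus control difference of median ATAC coverage ranged from -187.5 to 301.5 bp over the fits that leave out 1 library, so its direction is not settled; with the replicate number as a block it was 57.0 bp (exact p = 1.0), from differences of 459 and -345 bp. The limma fit called 0 regions under the replicate block, other normalisations and a minimum coverage, and from 0 to 101 common regions and 0 to 10 acetylated ones when 1 library was left out, the calls arising without control replicate 2. The crossed pairing (control replicate 1 with cKO replicate 2, and control replicate 2 with cKO replicate 1), added after seeing the data, gave 0 calls. With it, 1544 of 32852 common regions and 243 of 8287 acetylated ones had an unadjusted limma p under 0.05, a share below 0.05 in both sets. Without a block there were 102 and 6. The difference from regions with both marks ranged from -0.018 to 0.22 (log2), the negative value without control replicate 1; the other classes kept their direction. The H3K27ac change turned from -63 to 58.7 bp after scaling to equal covered bases. In alternatives added after seeing the data, H3K27me3 within 2 kb was at 16.8% of starts upstream and 2.41% downstream in control and at 16.9% and 2.50% in cKO, and with peaks of at least 300 bp at 25.9% and 2.19% in control and 25.3% and 2.10% in cKO, within 5 kb. Peak lists cannot separate a lower signal from shallower sequencing, and the histone marks have 1 library per genotype.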
